A study of Mus musculus with 9 samples.

Results

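The small leucine-rich proteoglycans are secreted proteins built from leucine-rich repeats, most of which carry sulphated sugar chains and bind collagen fibrils. The 8 genes described here are Dcn, Bgn and Aspn of class I, Fmod, Lum, Prelp and Omd of class II and Ogn of class III. They were chosen by gene symbol as members of this family, with earlier results of these data already known. All 8 were found among the 55359 genes of the count table, and all 8 were among the 14714 genes with enough counts to be tested.

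Ribosome footprints, the mRNA fragments that ribosomes shield from RNase, were counted per gene in preadipocytes, the precursors of fat cells, taken from the inguinal white fat pad of mice. Cells of day 0 received no induction medium. Cells of day 4 and day 8 were differentiated toward beige adipocytes, which can use their lipid to produce heat, in medium with dexamethasone, 3-isobutyl-1-methylxanthine, indomethacin, insulin, triiodothyronine and rosiglitazone. After 2 days this was replaced by maintenance medium from which the first 3 of these agents were left out. Each day had 3 libraries, 9 in all, and the labels do not say whether these came from separate animals or cultures, so p-values measure the spread between libraries, which may be technical. The labels give no strain, age or sex.

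In connective tissue these proteoglycans sit on collagen and set the width and spacing of its fibrils. Decorin (Dcn) and biglycan (Bgn) carry chondroitin or dermatan sulphate chains, and both also bind TGF-beta. Fibromodulin (Fmod), lumican (Lum), osteomodulin (Omd) and osteoglycin (Ogn) can carry keratan sulphate, whereas asporin (Aspn) has a stretch of acidic residues near its start and PRELP (Prelp) a basic stretch that binds heparin-type chains. In fat the fibroblast-like cells of the stroma, preadipocytes among them, make most of this matrix.

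The libraries held 30823028 to 38994892 counts. Levels are CPM, counts relative to a library size scaled by TMM, and they are compared within a gene only, because coding lengths were not used here. The labelled course was seen in its markers: the summed level of 6 adipocyte markers, among them Adipoq and Fabp4, was 226.5 to 290.7 CPM at day 0, 32990 to 51730 CPM at day 4 and 49730 to 53550 CPM at day 8. Most of that sum came from Fabp4, with means of 34392 CPM at day 4 and 43293 CPM at day 8. By the test given below, Adipoq and Cidec were lower at day 8 than at day 4, and 0 of the 6 were higher. Among all tested genes 17.1% were lower and 14.7% higher in that step. Thermogenic markers (Ucp1, Cidea, Ppargc1a and Elovl3) summed to 3.064 to 3.685 CPM, 168.2 to 284 CPM and 781.2 to 1350 CPM on the 3 days. Replicate 2 of day 4 and replicate 3 of day 8 stood apart from the other libraries of their day and lay nearer to day 0 on the first principal component, at 12.8 against 64.8 and 65.4 and at 62.1 against 85.5 and 85.8. Results are therefore also given without both. Footprint counts depend both on how much mRNA a gene has and on how densely ribosomes sit on it, and in these bulk cultures fewer cells of a type and less RNA per cell cannot be told apart.

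All 8 proteoglycan genes were lower at day 8 than in uninduced cells. Log2 fold changes ran from -1.02 for Prelp to -3.36 for Fmod, with a median of -2.28 against -0.01 over all tested genes. All 8 passed the test at a Benjamini-Hochberg adjusted p under 0.05, by the quasi-likelihood test of edgeR over all tested genes, where 67.7% of tested genes were called by the same rule, 33.5% as lower and 34.2% as higher. In all 8 the 3 libraries of day 8 lay below the 3 libraries of day 0, which held for 38.2% of tested genes. The 8 together took 0.959% ± 0.0188 of all counts at day 0, 0.378% ± 0.110 at day 4 and 0.202% ± 0.0734 at day 8 (SD, n = 3), most of them from Bgn. Without Bgn the shares were 0.218% ± 0.0482, 0.105% ± 0.0128 and 0.0562% ± 0.0226.

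The course in between was not the same for every gene. By day 4 only Bgn, Fmod and Ogn had passed the test as lower (3 of 8, where 58.2% of tested genes were called, 28.4% as lower and 29.8% as higher), and 7 of 8 did so without day 4 replicate 2 and day 8 replicate 3. In 5 of the 8 every library of day 4 lay below every library of day 0 (32.8% of tested genes). From day 4 to day 8, 6 of 8 fell, all but Fmod and Lum (31.8% of tested genes were called, 17.1% as lower and 14.7% as higher), and 7 of 8 without those 2 libraries. In 5 of the 8 the day 8 libraries all lay below those of day 4 (23.0% of tested genes). Bgn and Ogn were lower in each of the 3 comparisons, as were 5.00% of tested genes. The shares of tested genes are from the fit of all 9 libraries, and those without the 2 libraries are not given here. The counts of 7 of 8 therefore have no share to be read against. With single libraries left out, 7289 to 9609 of all tested genes were called at day 4 (8563 with all). From day 4 to day 8 it was 2706 to 4899 (4676 with all). The comparisons share libraries and are not independent of each other.

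**Figure D1:**
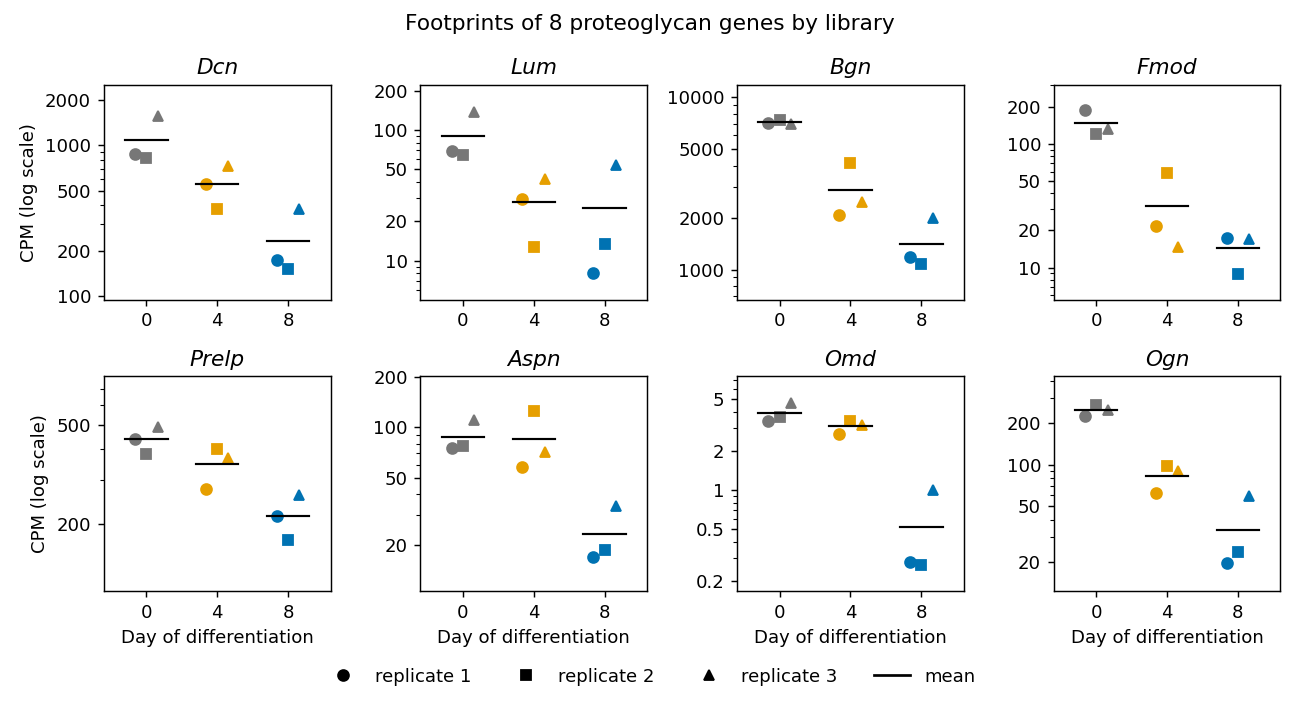
Normalised footprint counts (CPM, log axis) of the 8 genes by day, with 1 symbol per library and the mean of the day as a line. In every panel the 3 libraries of day 8 lie below the 3 of day 0, while the day 4 libraries of Aspn, Omd and Prelp overlap those of day 0.

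Bgn (ENSMUSG00000031375), whose core protein carries a pair of sugar chains, stood at 7056, 7349 and 6998 CPM at day 0. It stood at 2084, 4163 and 2475 CPM at day 4, and at 1184, 1070.0 and 1991 CPM at day 8. The days did not overlap, and the highest library was replicate 2 at day 4 and replicate 3 at day 8. Bgn fell 2.45-fold by day 4 (log2 fold change -1.30 ± 0.30 SE, adjusted p = 0.00447) and 5.04-fold by day 8 (-2.33 ± 0.31, adjusted p = 0.000112). These 2 calls held under each of the 19 alternative settings. The step from day 4 to day 8 was 2.05-fold (-1.04 ± 0.30, adjusted p = 0.0266). Leaving out day 8 replicate 1 or replicate 2 ended that call (-0.93 and -0.88, adjusted p = 0.0982 and 0.0994).

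Ogn (ENSMUSG00000021390), the class III member, took a similar course. Its level was 224.7, 270.1 and 248.1 CPM at day 0, then 62.5, 97.0 and 89.8 CPM at day 4, and 19.6, 23.5 and 59.0 CPM at day 8. The days did not overlap, and replicate 3 of day 8 came close to the lowest library of day 4. Ogn fell 2.98-fold by day 4 (-1.58 ± 0.36, adjusted p = 0.00417) and 7.28-fold by day 8 (-2.86 ± 0.38, adjusted p = 0.000108, and -3.51 without day 8 replicate 3). Both calls held under all 19 alternatives. From day 4 to day 8 it fell 2.44-fold (-1.29 ± 0.36, adjusted p = 0.0239, and -1.95 without day 8 replicate 3). It was not called in that step without day 4 replicate 3 (-1.23, adjusted p = 0.0590), day 8 replicate 1 (-1.02, adjusted p = 0.0750) or day 8 replicate 2 (-1.09, adjusted p = 0.0872).

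Fmod (ENSMUSG00000041559), which binds type I collagen and steers its cross-linking, had the deepest fall of the 8 with all 9 libraries. Most of the fall of Fmod lay before day 4. Its level was 189.4, 122.1 and 134.0 CPM at day 0, then 21.8, 58.5 and 14.8 CPM at day 4, and 17.4, 8.79 and 17.1 CPM at day 8. Day 4 and day 8 overlapped, since replicate 3 of day 4 lay below replicates 1 and 3 of day 8. The fall was 4.68-fold by day 4 (-2.23 ± 0.47, adjusted p = 0.00255, and -3.01 without day 4 replicate 2) and 10.3-fold by day 8 (-3.36 ± 0.50, adjusted p = 0.000207). The difference between day 8 and day 4 did not pass the test (-1.14 ± 0.46, adjusted p = 0.0875), but did so without day 4 replicate 3 (-1.48, adjusted p = 0.0330). Without day 4 replicate 2 the difference was only -0.35 (adjusted p = 0.404), and -0.49 (adjusted p = 0.226) without day 8 replicate 3 as well. The alternatives gave it adjusted p values of 0.0191 to 0.404. Without day 4 replicate 2 and day 8 replicate 3, Omd (-3.82) and Ogn (-3.52) fell further by day 8 than Fmod (-3.50).

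Aspn (ENSMUSG00000021388) and Omd (ENSMUSG00000048368) were near their starting level at day 4 and low at day 8. Prelp, described below, had as small a day 4 change as Omd (-0.33 in both) but a smaller fall after it. Aspn, which can bind calcium through its acidic stretch, stood at 75.7, 77.6 and 111 CPM at day 0, at 57.7, 125.8 and 71.1 CPM at day 4 and at 16.9, 18.6 and 34.2 CPM at day 8. The libraries of day 0 and day 4 overlapped, and all of day 8 lay below both. The day 4 difference was -0.05 ± 0.33 (adjusted p = 0.902), and its sign turned without day 0 replicate 3 (0.15), day 4 replicate 1 (0.16) or day 4 replicate 3 (0.06). Without day 4 replicate 2 and day 8 replicate 3 it was -0.45 (adjusted p = 0.0268). From day 4 to day 8 Aspn fell 3.65-fold (-1.87 ± 0.34, adjusted p = 0.00376), and against day 0 it fell 3.79-fold (-1.92 ± 0.34, adjusted p = 0.000698), under all 19 alternatives in both cases.

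Omd, known from mineralised tissue, was the least counted of the 8, with 398 counts over the day 0 libraries, 330 at day 4 and 56 at day 8. Its level was 3.38, 3.65 and 4.66 CPM at day 0, then 2.70, 3.41 and 3.19 CPM at day 4, and 0.279, 0.267 and 1.01 CPM at day 8. Day 0 and day 4 overlapped in 1 library of day 4, and day 8 lay below all others. Omd was not called at day 4 (-0.33 ± 0.38, adjusted p = 0.479). It fell 5.97-fold from day 4 to day 8 (-2.58 ± 0.44, adjusted p = 0.00273) and 7.51-fold against day 0 (-2.91 ± 0.44, adjusted p = 0.000241), under all 19 alternatives. Without day 8 replicate 3 these values were -3.49 and -3.81.

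A test of day 4 against the midpoint of day 0 and day 8 on the log2 scale was made for all 8 genes. Aspn and Omd were above that midpoint (2 of 8, where 37.9% of tested genes were called, 22.3% as higher and 15.6% as lower), Aspn by 0.91 ± 0.28 (adjusted p = 0.0279) and Omd by 1.12 ± 0.34 (adjusted p = 0.0257). The call of Aspn was lost without day 4 replicate 2 (0.51, adjusted p = 0.109). It was also lost without day 0 replicate 1 or 2 (both 0.87, 0.0597 and 0.0612) and without day 8 replicate 1 or 2 (0.83 and 0.85, 0.0539 and 0.0563). That of Omd was lost without day 0 replicate 1 or 2 (1.09 and 1.10, 0.0557 and 0.0548) and without day 4 replicate 3 (1.11, 0.0792). None of the other 6 was called, but Fmod lay below the midpoint without day 4 replicate 2 (-1.33, adjusted p = 0.00305). Without day 4 replicate 2 and day 8 replicate 3 together, Dcn was called above the midpoint (0.61, adjusted p = 0.0322), and Bgn (-0.31, adjusted p = 0.0212) and Fmod (-1.26, adjusted p = 0.00168) below it. Under the alternatives Aspn had adjusted p values of 0.0016 to 0.109 and Omd of 0.000247 to 0.0792.

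Prelp (ENSMUSG00000041577), which anchors basement membranes to collagen, had the smallest fall. Its level was 440.3, 381.8 and 489.4 CPM at day 0, then 275.3, 400.6 and 366.4 CPM at day 4, and 214.7, 171.2 and 260.2 CPM at day 8. Day 4 overlapped day 0 through replicate 2, and day 8 lay below both. Prelp fell 2.03-fold by day 8 (-1.02 ± 0.19, adjusted p = 0.000895), under all 19 alternatives. At day 4 it was not called (-0.33 ± 0.19, adjusted p = 0.156). The step from day 4 to day 8 was 1.61-fold (-0.69 ± 0.19, adjusted p = 0.0213). That call was lost without day 4 replicate 3 (-0.65, adjusted p = 0.0586), day 8 replicate 1 (-0.69, adjusted p = 0.0666) or day 8 replicate 2 (-0.55, adjusted p = 0.0791).

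Dcn (ENSMUSG00000019929), the best known binder of collagen and TGF-beta in the family, fell more evenly but with a wide spread. It stood at 869.7, 822 and 1572 CPM at day 0, at 557, 376 and 725 CPM at day 4 and at 173.6, 152 and 376 CPM at day 8. Day 4 lay below day 0 in all 3 libraries, and replicate 3 of day 8 was as high as the lowest library of day 4. Dcn fell 4.65-fold by day 8 (-2.22 ± 0.41, adjusted p = 0.000798, under all 19 alternatives). The day 4 difference, -0.98 ± 0.39, missed the threshold (adjusted p = 0.0543). It was called without day 4 replicate 3 (-1.22, adjusted p = 0.0477) and without day 8 replicate 3 (-0.96, adjusted p = 0.0208), and the alternatives gave 0.00205 to 0.224. From day 4 to day 8 it fell 2.36-fold (-1.24 ± 0.39, adjusted p = 0.0374). This call was lost without day 0 replicate 1 (-1.25, adjusted p = 0.0503) and without day 4 replicate 1 (-1.23, 0.0623) or replicate 3 (-0.998, 0.113). It was also lost without day 8 replicate 1 (-1.07, 0.126) or replicate 2 (-1.01, 0.124).

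Lum (ENSMUSG00000036446), the keratan sulphate proteoglycan of the cornea that is also made by many fibroblasts, varied widely between libraries of a day. Its level was 68.6, 64.8 and 138 CPM at day 0, then 29.7, 12.8 and 42.1 CPM at day 4, and 8.07, 13.4 and 54.2 CPM at day 8. All libraries of both later days lay below day 0, and day 8 replicate 3 lay above every library of day 4. Lum fell 3.58-fold by day 8 (-1.84 ± 0.68, adjusted p = 0.0336, and -3.06 without day 8 replicate 3). The call was lost without day 0 replicate 3 (-1.40, adjusted p = 0.123), day 8 replicate 1 (-1.41, adjusted p = 0.0905) or day 8 replicate 2 (-1.53, adjusted p = 0.109). The alternatives gave adjusted p values of 8.47e-06 to 0.123. The day 4 difference of -1.68 ± 0.67 missed the threshold (adjusted p = 0.0540), but was called without day 8 replicate 1 (-1.66, 0.0346) or replicate 3 (-1.67, 0.0103). Day 8 did not differ from day 4 by the test (-0.16 ± 0.66, adjusted p = 0.874). The sign turned without day 4 replicate 3 (0.25) or day 8 replicate 1 (0.26) or 2 (0.14), and the value was -1.74 (adjusted p = 0.00284) without day 4 replicate 2 and day 8 replicate 3.

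**Figure D2:**
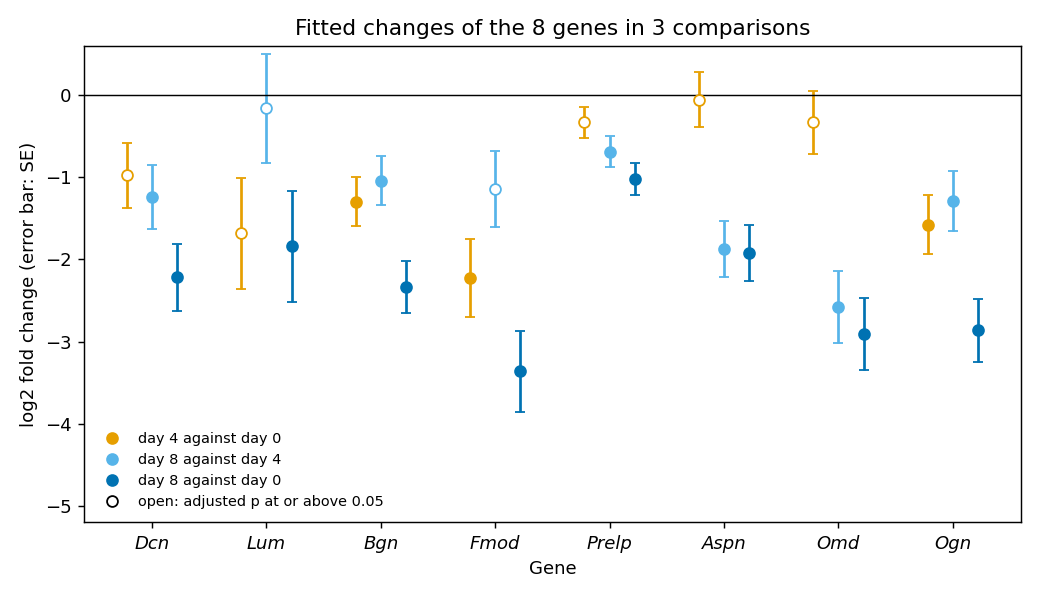
Fitted log2 fold change of each gene in 3 comparisons, with its standard error from the quasi-likelihood F statistic as the bar, and open points where the adjusted p was 0.05 or more. All 8 points for day 8 against day 0 are filled and lie between -1.02 and -3.36, while Aspn, Omd and Prelp are nearest to 0 at day 4 and fall between day 4 and day 8.

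Several of the genes are neighbours on their chromosomes. In the RefSeq annotation of GRCm38.p6, used here only for names, order and sequence, Dcn and Lum are adjacent on chromosome 10, Prelp and Fmod on chromosome 1, and Aspn, Omd and Ogn follow each other on chromosome 13, while Bgn lies alone on chromosome X. Aspn, Omd and Ogn overlap Cenpp, a centromere protein gene with 35 to 120 counts per library. The strand setting of the counting is not given in the sources used here, so reads of these genes and of Cenpp cannot be told apart by strand. The number of Cenpp counts is small beside those of Aspn and Ogn and similar to those of Omd, which had 10 to 169 counts per library.

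Ratios of genes in the same cluster were compared over the 3 days, and none of the 4 directly adjacent pairs passed the test. Aspn and Ogn, which have Omd between them, did. Their log2 ratio, Aspn to Ogn, changed from -1.51 ± 0.32 at day 0 to -0.03 ± 0.36 at day 4 and -0.44 ± 0.30 at day 8 (SD, n = 3). An exact permutation test over all arrangements of the 9 libraries gave p = 0.0107 (adjusted p = 0.0375 over the 28 pairs of genes). Here and below this test asks whether the ratio differed among the 3 days, and not between which of them. The ratio of Omd to Ogn was 1.28 higher at day 4 than at day 0 and 0.03 higher at day 8 (exact permutation p = 0.0321, adjusted p = 0.0750). Aspn against Omd, the other adjacent pair there, gave changes of 0.21 at day 4 and 1.04 at day 8 against day 0 (exact permutation p = 0.0643, adjusted p = 0.119). For Fmod against Prelp, adjacent on chromosome 1, the ratio was 2.11 lower at day 4 and 2.36 lower at day 8 on the log2 scale (exact permutation p = 0.0286, adjusted p = 0.0727). Dcn against Lum gave changes of 0.79 and -0.04 (exact permutation p = 0.221, adjusted p = 0.300).

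Of the 28 pairs 8 passed at an adjusted p of 0.0375, the smallest value reached. Besides Aspn to Ogn these were Aspn to Fmod and Prelp to Ogn (each p = 0.00357 by the exact permutation test, the smallest that it can give), Bgn to Aspn, Dcn to Omd and Lum to Omd (each exact permutation p = 0.00714), and Bgn to Prelp and Bgn to Omd (each exact permutation p = 0.0107). In 6 of these 8 pairs the ratio of day 4 lay outside the range between day 0 and day 8, and in Bgn to Prelp and Prelp to Ogn it lay between them. The log2 ratio of Aspn to Fmod, for example, rose from -0.75 ± 0.53 at day 0 to 1.59 ± 0.60 at day 4 and was 0.68 ± 0.62 at day 8. That of Prelp to Ogn rose from 0.82 ± 0.27 to 2.07 ± 0.06 and 2.82 ± 0.65. Without day 4 replicate 2 and day 8 replicate 3, when 210 arrangements remain and the smallest possible p is 0.00952, none of the 28 passed and the smallest adjusted p was 0.0889. Scaling of the libraries enters a ratio only through the prior count, and 8 pairs passed with a prior count of 0.5 too.

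The libraries of day 4 were ordered differently for Dcn and Lum than for the other 6 genes. In replicate 2 both were the lowest of their day, with deviations from its mean of -0.506 and -0.975 log2 units, whereas Bgn, Aspn, Fmod, Prelp, Omd and Ogn were all highest there, with deviations of 0.142 for Omd to 1.13 for Fmod. Over all tested genes that library was the lowest of its day for 43.6% and the highest for 39.9%. In day 8 replicate 3, 7 of the 8 were the highest of their day, all but Fmod, with deviations of 0.294 for Prelp to 1.58 for Lum (that library was highest for 41.5% of tested genes). At day 0, replicate 3 was highest for Dcn (0.596), Lum (0.700), Aspn, Prelp and Omd (34.7% of tested genes), and Bgn differed little between libraries there. Replicate 2 of day 4 also had a higher summed level of 9 precursor and fibroblast markers, 2224 CPM against 980.9 and 1154 CPM, and fewer adipocyte markers, 32990 CPM against 49890 and 51730 CPM. The part of this difference in the levels of the 8 genes was not tested.

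**Figure D3:**
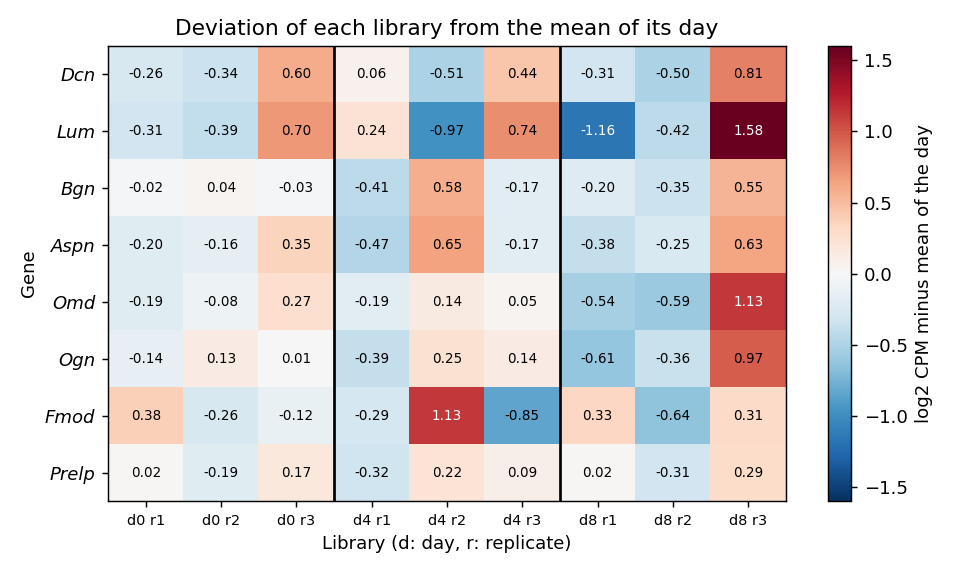
Log2 CPM of each gene in each library minus the mean of its day, with red above and blue below that mean. Dcn and Lum are blue in day 4 replicate 2, where the other 6 genes are red, and 7 of the 8 are highest in day 8 replicate 3.

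Several lists of markers of other cell types were also lower in sum at day 8, but not all. The summed level of the 9 precursor and fibroblast markers (Pdgfra, Pdgfrb, Ly6a, Dlk1, Cd34, Thy1, Dpp4, Pi16 and Icam1) was 3216 to 3298 CPM at day 0, 980.9 to 2224 CPM at day 4 and 708.3 to 1027 CPM at day 8, and 5 of 9 were lower and none higher at day 8 than at day 0. At day 4, 4 of these 9 were lower and 3 higher, namely Ly6a (0.86 ± 0.31, adjusted p = 0.0338), Dlk1 (0.77 ± 0.28, adjusted p = 0.0366) and Cd34 (1.70 ± 0.59, adjusted p = 0.0319). The call of Ly6a was lost without day 4 replicate 2 (0.36, adjusted p = 0.0795) or day 0 replicate 2 or 3. That of Dlk1 was lost without day 4 replicate 2 (0.54, adjusted p = 0.0978) or day 0 replicate 2. That of Cd34 was lost without day 0 replicate 1 or 2 or day 4 replicate 3. Without day 4 replicate 2 and day 8 replicate 3 together, 5 of the 9 were lower and 2 higher at day 4. Smooth muscle and pericyte markers (7 genes, among them Acta2) summed to 3917 to 5893 CPM, 157.8 to 443.9 CPM and 332.2 to 507.6 CPM, with 4 of 7 lower and 2 higher at day 8. Tendon markers (4 genes, among them Tnmd) summed to 37.7 to 59.7 CPM, 3.16 to 5.31 CPM and 0.586 to 3.58 CPM, and cartilage and bone markers (7 genes) to 117 to 126 CPM, 32.1 to 69.2 CPM and 18.9 to 29.1 CPM. Leukocyte markers (8 genes) summed to 52.7 to 98.7 CPM at day 0, 51.0 to 62.1 CPM at day 4 and 21.5 to 47.8 CPM at day 8, with 0 of 6 tested genes called at day 4 and 2 lower at day 8. Endothelial markers (6 genes) summed to 18.7 to 27.1 CPM at day 0 and 3.42 to 8.15 CPM at day 8, and epithelial markers (5 genes) to at most 1.21 CPM. Schwann and mesothelial markers (5 genes) summed to 0.761 to 1.32 CPM at day 0 and 0.949 to 2.604 CPM at day 8, with 0 of 3 tested genes called. Among all tested genes 28.4% were lower and 29.8% higher at day 4, and 33.5% lower and 34.2% higher at day 8, each against day 0. None of these lists held a gene without any count. Their part in the results was not tested.

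The remaining members of the wider family did not all fall. Of 10 such genes 6 could be tested, of which 2 were lower and 1 higher at day 8 than at day 0 (4 lower and 1 higher of 8 without day 4 replicate 2 and day 8 replicate 3). With all 9 libraries 33.5% of tested genes were lower and 34.2% higher, so the 2 of 6 lower is near the share over all genes. Podn, which encodes podocan, stood at 141, 140.4 and 194.5 CPM at day 0 and at 12.8, 8.55 and 27.5 CPM at day 8, a fall of 3.28 on the log2 scale (-3.28 ± 0.38, adjusted p = 4.41e-05, and -3.88 without day 8 replicate 3). Ecm2, the gene beside Aspn, fell by 2.64 (-2.64 ± 0.44, adjusted p = 0.000442), from 4.45, 3.84 and 5.71 CPM to 0.837, 0.401 and 1.01 CPM. Tsku, which encodes the secreted protein tsukushi, stood at 35.8, 35.2 and 34.4 CPM at day 0 and at 100.5, 116 and 75.3 CPM at day 8, and rose by 1.47 ± 0.19 (adjusted p = 8.86e-05). Kera, beside Lum, had 14, 3 and 20 counts at day 0, 0 counts in each library of day 4 and 0, 0 and 1 at day 8, and was not tested. Optc and Podnl1 were lower at day 4 (-2.06 ± 0.45, adjusted p = 0.00298, and -2.004 ± 0.47, adjusted p = 0.00473) and Podnl1 was higher at day 8 than at day 4 (2.78 ± 0.47, adjusted p = 0.00263). Optc was also called higher in that step (1.40 ± 0.45, adjusted p = 0.0402), but leaving out a single library ended this call for every library except day 4 replicate 2 and day 8 replicate 3, with adjusted p values of 0.0530 to 0.147 and log2 changes of 1.05 to 1.46. Without day 4 replicate 2 the Optc change was 2.01 in this step and -2.67 at day 4 against day 0. Chadl was not called at day 8 (0.24 ± 0.21, adjusted p = 0.321), and Chad had 0 counts in all 9 libraries.

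Most genes of the collagen fibril were lower too. As a reference for both lists in this paragraph, 33.5% of all tested genes were called lower at day 8 against day 0 and 34.2% higher. Of 18 fibril-forming collagens and partners 12 were lower and 3 higher at day 8 than at day 0, with a median log2 fold change of -2.57. Col1a1 and Col3a1, the main fibrillar collagens that decorin and lumican coat, fell by 2.72 ± 0.36 (adjusted p = 9.54e-05) and 2.22 ± 0.38 (adjusted p = 0.000531, and by 2.82 without day 8 replicate 3). Col1a2, the partner chain of Col1a1, fell by 2.97 ± 0.37. Fn1, fibronectin, and Thbs2, a matrix protein of fibroblasts, fell by 3.10 ± 0.40 and 3.40 ± 0.29. Col5a3, a minor fibrillar chain, rose by 2.65 ± 0.25 (adjusted p = 1.26e-05). Of 17 genes that modify or cross-link collagen 14 were lower and 1 higher, with a median of -1.32. Among them the lysyl oxidase Lox fell by 1.32 ± 0.25 and the collagen chaperone Serpinh1 by 1.66 ± 0.19, while Plod1, a lysyl hydroxylase, rose by 1.62 ± 0.16. Pcolce and Adamts14, which help or carry out removal of the procollagen ends, fell by 1.65 ± 0.27 and 3.19 ± 0.34, and P4hb, a subunit of prolyl hydroxylase, fell by 0.68 ± 0.17 (adjusted p = 0.00482, at most 0.227 under the alternatives).

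Proteases that trim or cleave the core proteins, and their inhibitors, were lower in all 15 tested genes at day 8, with a median of -2.63. The share lower among all tested genes was 33.5%. Mmp14, a membrane protease that cleaves several matrix proteins, fell by 3.19 ± 0.43 (adjusted p = 0.00012) and Mmp2 by 1.84 ± 0.32 (adjusted p = 0.000616). Mmp13, a collagenase, fell by 4.92 ± 0.55 and Adamts4, an aggrecanase, by 2.88 ± 0.31. Htra1, a secreted serine protease, fell by 1.501 ± 0.19 and the inhibitor Timp2 by 2.68 ± 0.38. The calls of Adamts9 (-0.46 ± 0.19, adjusted p = 0.0494) and Mmp9 (-2.92 ± 1.00, adjusted p = 0.0253) were the least stable. That of Adamts9 was lost without day 0 replicate 2 or 3, day 4 replicate 1 or 3, or day 8 replicate 1 or 2 (adjusted p = 0.0511 to 0.174). That of Mmp9 was lost without day 0 replicate 2 or 3, or day 8 replicate 1 or 3 (adjusted p = 0.0554 to 0.0764). At day 4, 11 of these 15 were lower and 1, Adamts9, was higher, beside 28.4% lower and 29.8% higher among all tested genes.

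Enzymes that build the sugar chains were also mostly lower. Of 22 genes for the linker and for chondroitin and dermatan sulphate 17 were lower and 2 higher at day 8 (18 and 4 without day 4 replicate 2 and day 8 replicate 3), with a median of -0.90. With all 9 libraries 33.5% of tested genes were lower and 34.2% higher. Csgalnact1, which adds the first sugar that commits a chain to chondroitin, fell by 4.03 ± 0.47 (adjusted p = 4.71e-05), and Chpf, which helps lengthen it, by 2.45 ± 0.22 (adjusted p = 9.14e-06). Chst13, a chondroitin sulphotransferase, rose by 4.14 ± 0.30 (adjusted p = 2.89e-06) from 0.912 CPM at day 0. Chpf2 and Chst12 fell by 0.96 ± 0.11 and 0.85 ± 0.14. Of 7 tested keratan sulphate genes 4 were lower and none higher, with B4galt1 down by 0.70 ± 0.12 and Chst2, a sulphotransferase, down by 2.25 ± 0.32. B4galt4, a galactosyltransferase, fell by 2.602 ± 0.33, and Fut8, which adds core fucose, had a change of -0.02 ± 0.14 (adjusted p = 0.900). Of 6 tested genes for sulphate supply 4 were lower and 1 higher, with small changes: Papss1, which makes the sulphate donor, fell by 0.48 ± 0.11 (adjusted p = 0.00318) and Slc35b2, which carries it into the Golgi, by 0.43 ± 0.10 (adjusted p = 0.00295). The sulphate transporter gene Slc26a2 rose by 0.41 ± 0.13 (adjusted p = 0.0155), and Bpnt2 was not called (0.20 ± 0.12, adjusted p = 0.150). The call of Slc26a2 was lost without day 0 replicate 2 (0.37, adjusted p = 0.0569), day 0 replicate 3 (0.35, 0.0631) or day 8 replicate 2 (0.37, 0.0523). Those of B4galt1, Papss1 and Slc35b2 did not hold under every alternative, with adjusted p values of up to 0.131, 0.806 and 0.984.

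Genes of TGF-beta and BMP (bone morphogenetic protein) signalling were lower in 23 of 26 and higher in 1 at day 8, with a median of -1.06. Decorin and biglycan can bind TGF-beta, which is known to induce several matrix genes. The ligand gene Tgfb3 fell by 3.07 ± 0.20 (adjusted p = 1.67e-06), the signal carrier Smad3 by 1.47 ± 0.10 (adjusted p = 2.28e-06) and the target gene Ccn2 by 4.00 ± 0.51 (adjusted p = 7.84e-05). Ltbp3, which holds latent TGF-beta in the matrix, fell by 1.27 ± 0.11 and the co-receptor gene Tgfbr3 by 1.08 ± 0.26. Of 15 genes for reported receptors of these proteoglycans 11 were lower and 3 higher. Both lists stand beside 33.5% lower and 34.2% higher among all tested genes. Lrp1, an endocytic receptor of decorin, fell by 1.74 ± 0.24 (adjusted p = 0.00013), Itgb1, an integrin chain, by 1.49 ± 0.20 and Egfr by 0.68 ± 0.21 (adjusted p = 0.0143), whereas Met, the receptor of hepatocyte growth factor, rose by 1.85 ± 0.15 (adjusted p = 5.69e-06) and the insulin receptor gene Insr by 1.78 ± 0.15 (adjusted p = 7.17e-06). The call of Egfr was lost without day 0 replicate 3 (-0.57, adjusted p = 0.0583), day 8 replicate 1 (-0.52, 0.0635) or day 8 replicate 2 (-0.59, 0.0602).

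Proteoglycans outside the family went both ways, with 11 of 20 tested genes lower and 8 higher at day 8. Vcan, the large chondroitin sulphate proteoglycan versican, fell by 3.25 ± 0.41 (adjusted p = 7.53e-05) and Gpc1, a glypican of the cell surface, by 2.07 ± 0.12 (adjusted p = 8.1e-07). Gpc4, another glypican, fell by 1.37 ± 0.11. Col15a1, a basement membrane collagen with sugar chains, rose by 3.05 ± 0.21 (adjusted p = 2.1e-06). Hspg2, the basement membrane proteoglycan perlecan, fell by 1.03 ± 0.18 (adjusted p = 0.000508). These counts describe the lists beside 33.5% lower and 34.2% higher among all tested genes and were not tested as sets.

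**Figure D4:**
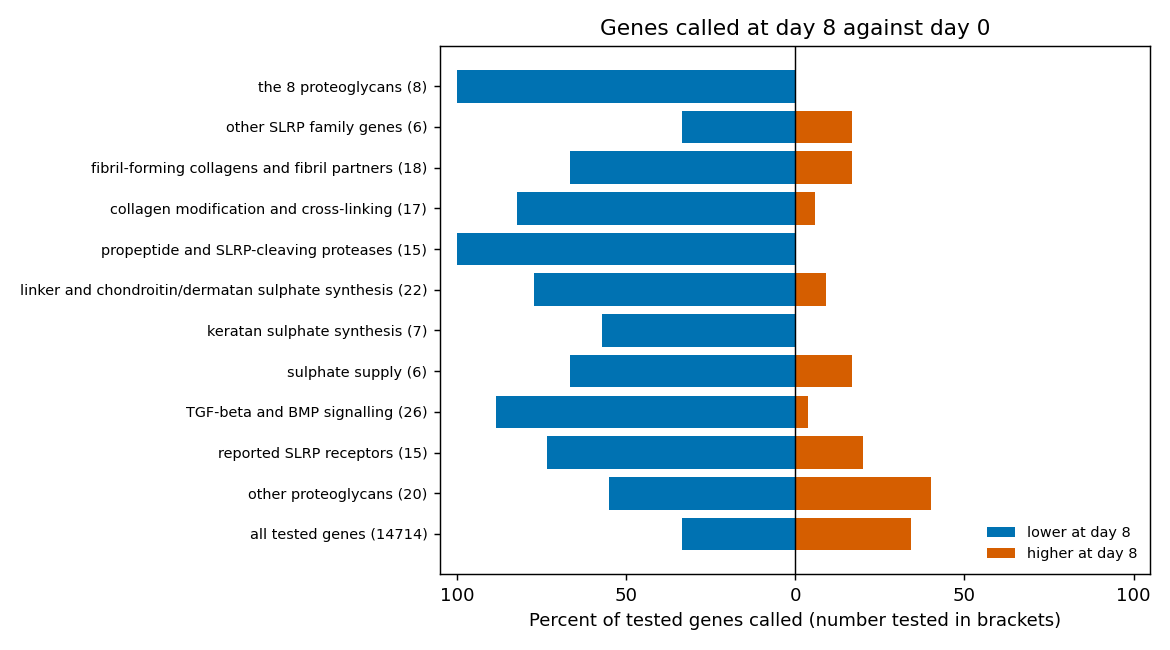
Percent of the tested genes of each list that were called lower (left, blue) or higher (right, orange) at day 8 against day 0, with the number tested in brackets and all tested genes at the bottom. The 8 proteoglycans and the 15 proteases and inhibitors lie wholly on the lower side, and the other proteoglycans have 11 lower and 8 higher genes.

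The sequences just before the start of each gene were read for 6 of the 8 from RefSeq promoters of GRCm38.p6, and are shown because genes that fell together differed in base content there. Each line gives the 30 bases before the annotated start, from the strand of the gene, with matches to a searched motif in capitals.
Bgn (chrX:73483571-73483600, plus strand): cccgtcccctccctgtcggcCCGCCCGCCC
Fmod (chr1:134037224-134037253, plus strand): agagactgcagaaataacttctggggcatc
Prelp (chr1:133921402-133921431, minus strand): actaacctccccaccccaataggatctggt
Aspn (chr13:49544413-49544442, plus strand): tagctagaagttttggctatggtacaaaca
Omd (chr13:49582432-49582461, plus strand): taaaaacagtaatcagtacatgttgtttca
Ogn (chr13:49607985-49608014, plus strand): tttaaactgttgggccctgaaactttattc
Over the 250 bases before the start, G and C made up 64.4% in Bgn, 55.6% in Prelp, 51.2% in Fmod, 42.0% in Ogn, 38.4% in Omd and 30.0% in Aspn, beside a median of 52.4% over 32851 promoters. The 3 neighbours on chromosome 13 thus had the lowest values of the 6.

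Both strands of those 250 bases were searched for 5 short motifs. The core promoter motif was TATAAA, and the motif of Sp1 factors was GGGCGG. For AP-1 factors TGANTCA was used, for TEAD factors GGAATG, and for steroid receptors such as that of dexamethasone AGAACA. Bgn held GGGCGG 3 times on the minus strand, 2 of them overlapping by 2 bases in the capitals above, and 32.7% of all promoters held it at least once. Ogn held GGAATG once, 86 bases before the start, as did 12.6% of all promoters.
Ogn (chr13:49607917-49607946, plus strand): tcaccccgagaaGGAATGttggcaaagatt
TATAAA was found in Aspn and Ogn (12.4% of all promoters), each time over 170 bases before the start, and AGAACA in Bgn (16.1%). TGANTCA was in none of the 6 windows (6.75% of all promoters). Such matches describe letters and not binding.

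The genes whose levels followed each proteoglycan most closely over the 9 libraries were taken from 6258 tested genes with a mean of at least 20 CPM. For Bgn they were Clmp, Kctd10 and Cyba (Pearson r 0.998 each, over libraries that share their day). For Ogn they were Klhl28, the mitotic kinase gene Cdk1 and the microfibril gene Mfap2 (0.995, 0.994 and 0.992), and Fmod was followed closely by Epb41l3 and Eef2k (0.991 each). Aspn was followed most closely by Man2b1, Man1a and the protease inhibitor gene Serpine2 (0.995, 0.992 and 0.994). Omd was followed by Col5a1, a chain of collagen V that nucleates fibrils, Ggcx and Asph (0.989, 0.986 and 0.985). Prelp was nearest to Ankrd52, Fig4 and Hspa12a (0.993, 0.986 and 0.979) and Dcn was close to Nsd3 and the matrix gene Smoc2 (0.965 and 0.966). Lum had the least close neighbours, AF357428, Csnk1g3 and Gins4 (0.924, 0.924 and 0.919). A high r says only that the levels rose and fell in the same libraries, and fold changes could differ: Smoc2 had -4.20 and Dcn -2.22 at day 8 against day 0.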

How the data were processed

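The authors deposited raw footprint counts by Ensembl gene for each library. The tools named in the submitters' processing notes are cutadapt, HISAT2 and featureCounts, with the build GRCm39. Their versions, the strand setting and the counted feature: not given in the sources used here. Per the labels' protocols, lysates with cycloheximide were digested with RNase I, depleted of ribosomal RNA and cut from a gel at footprint size.

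Genes were filtered with filterByExpr (minimum count 10). TMM gave the library sizes. The model of edgeR 4.0.16 (R 4.3.3), with quasi-likelihood F tests, had day as its only term and used all 9 libraries. Calls needed an adjusted p (Benjamini-Hochberg, 14714 genes) under 0.05. A standard error is the fold change divided by the root of F. Log2 CPM used a prior count of 2. Ratios of 2 genes were compared by an exact permutation test of the sum of squares of the log2 ratio between the 3 days, which has no direction. Alternatives changed the scaling, filter, test (DESeq2 1.42.0, limma-voom 3.58.1, a 1.5-fold threshold), replicate block and libraries. In simulated data of 14714 genes 97% to 99% of 4-fold and 67% to 69% of 2-fold changes were recovered. These data had day 0 levels on all days and changes in few genes, none of very low level. No library was made to stand apart, so the rates need not hold for the real libraries.

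The genes, lists, motifs and the libraries left out together were chosen with earlier results of these data known. Named genes are the 8, from each pathway list the 4 tested genes with the highest mean CPM and the 2 with the smallest adjusted p at day 8 against day 0, marker genes where needed, and the 3 genes with the highest r for each of the 8. Kera, Chad, Optc, Podnl1 and Cenpp were named for their place in the family or genome. Adamts9 and Mmp9 were named after their values were seen. Some genes that this rule names are not reported here.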

Additional observations from a re-analysis of the deposited data

How the results depend on the processing

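All 8 genes kept their direction at day 8 against day 0 under 19 alternatives, and 7 of 8 kept their call under each; Lum lost it with a 1.5-fold threshold and without 3 single libraries. The number called at day 4 was 3, and was 5 with upper quartile scaling, 6 with library totals, 5 without the low-count filter, 5 with only the 2 groups compared, 7 without day 4 replicate 2 and day 8 replicate 3, and 3 to 5 with each library left out in turn. Between day 4 and day 8 it was 6, and was 2 with the 1.5-fold threshold, 3 with only the 2 groups and 2 to 6 with each library left out. Against the midpoint it was 2, and was 1 with library totals, 5 without both libraries and 0 to 2 with each left out. None of the 28 ratios passed without both libraries (0, against 8). With the 1.5-fold threshold 4903, 6488 and 1097 of all tested genes were called at day 4 and day 8 against day 0 and at day 8 against day 4, instead of 8563, 9961 and 4676. With each library left out these counts were 7289 to 9609, 9135 to 10693 and 2706 to 4899, and 3649 to 6882 for the midpoint, against 5577. How many of all tested genes were called without both libraries is not given here.

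Signs turned only where the fit of all 9 libraries made no call. Some of these changes were called without both libraries. They were Aspn at day 4 (-0.45, adjusted p = 0.0268) and Lum at day 8 against day 4 (-1.74, adjusted p = 0.00284). Against the midpoint they were Dcn (0.61, adjusted p = 0.0322) and Bgn (-0.31, adjusted p = 0.0212). With each library left out Aspn at day 4 ran from -0.45 to 0.16 and Lum at day 8 against day 4 from -1.39 to 0.26. Against the midpoint Dcn was -0.0183 with library totals and Lum 0.20 and Ogn 0.0627 without both libraries, and with each library left out Dcn ran from -0.11 to 0.40, Bgn from -0.48 to 0.0644 and Ogn from -0.27 to 0.20. The median log2 fold change over all genes was -0.02 at day 4 against day 0, -0.0057 at day 8 against day 0 and -0.02 at day 8 against day 4 with TMM. With library totals it was -0.17, -0.02 and 0.12, and with upper quartile scaling -0.14, -0.11 and -0.0022. With library totals 65.9% of the genes called at day 8 against day 4 were higher (46.2% with TMM), and 41.3% against the midpoint (59.0%).

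Correlations of the deviations of libraries with the same replicate number ran from -0.200 to 0.188, and 2 of 9 were over 0.1. Those of libraries with other numbers ran from -0.296 to 0.314, and 3 of 18 were over 0.1. Whether the numbers mark pairs was not tested. With the replicate number as a block 8290, 9722, 4079 and 5114 genes were called in the 4 comparisons, and 5, 8, 6 and 2 of the 8. Levels per coding length were planned and not run, since coding lengths were not used here. Omd, at 10 to 169 counts per library, had the fewest counts.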
